A study of Mus musculus with 6 samples.

Results

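The 10 genes described here carry the Notch pathway: the receptor genes Notch1, Notch2 and Notch3, the ligand genes Jag1, Jag2 and Dll1, the target genes Hes1 and Hey1, and the nuclear effector genes Rbpj and Maml1. They were chosen by name, out of 21887 protein-coding genes of the RefSeq table, and each is described by the p53 summits inside it or within 50 kb of either of its ends. Binding of p53 was mapped by ChIP-seq, which sequences the DNA recovered with an antibody, in epidermal basal progenitors of 8-week-old mice, which were sorted as alpha-6 integrin high and EpCAM positive. One genotype carried wild-type p53 (WT) and the other the p53 form named 3KR, with 3 libraries each. From general knowledge, 3KR is a p53 in which arginines stand in for acetylated lysines of the DNA-binding domain, but the labels give only the name. In both genotypes 25 µM of Nutlin-3a, which keeps MDM2 from degrading p53, was in the digestion medium.

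A summit is the single base at which a called peak is highest. Each genotype has 1 combined list, with 1668 summits in WT and 6753 in 3KR, and no value of a single library, so no spread between animals and no test between genotypes can be given. The depth behind each list is unknown, and deeper sequencing alone can lengthen a list. Summit names carry a run label that ends in 1 for WT and contains Doxo for 3KR. It is not known whether all 3 libraries stand behind each list, or whether the word Doxo stands for an agent used on 3KR cells, whose effect could not be told apart from that of genotype. The score of a summit, −log10 of a p or q value from the authors' peak caller, is used to rank summits within its own list. The cell type cannot be checked from summits, which measure no expression.

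Notch receptors are cut when a ligand on a neighbouring cell binds them, and the freed intracellular part enters the nucleus. There it joins the DNA-binding protein RBPJ and a Mastermind coactivator, MAML1 among them, and switches on genes of the Hes and Hey repressor families. In the epidermis the pathway is known for driving basal cells out of the dividing layer into differentiation, and in keratinocytes NOTCH1 is known as a p53 target gene.

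The clearest site of the group lay inside Jag2, at nearly the same base in both lists. A second shared site stood 40.4 kb from Hes1. Rbpj had a pair of summits beside its listed starts in the 3KR list. In that list Hes1, which has no listed start, had one 112 bp outside its lower-coordinate end. Notch2, Notch3, Jag1 and Hey1 had no summit within 50 kb in either list. The sequences before the starts of Rbpj and Jag2 are shown because these genes have a summit near a listed start. They come from RefSeq (GRCm38.p6) and run 5′ to 3′ on the strand of the gene, covering the 250 bases before the start. In the first Rbpj sequence (chr5:53590096-53590345, plus strand, before the start at 53590346) the capitals mark TGGGAA, the core recognised by RBPJ itself, on either strand. In the second (chr5:53590236-53590485, plus strand, before the start at 53590486) they mark a match to the p53 half-site. In the Jag2 sequence (chr12:112929496-112929745, minus strand, before the start at 112929495) they mark the last 20 bases before the start.
Rbpj, first start: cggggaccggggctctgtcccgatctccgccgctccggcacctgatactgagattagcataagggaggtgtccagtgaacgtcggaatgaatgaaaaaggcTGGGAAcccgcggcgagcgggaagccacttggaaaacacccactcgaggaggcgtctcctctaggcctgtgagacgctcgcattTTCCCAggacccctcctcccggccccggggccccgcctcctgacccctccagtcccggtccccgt
Rbpj, second start: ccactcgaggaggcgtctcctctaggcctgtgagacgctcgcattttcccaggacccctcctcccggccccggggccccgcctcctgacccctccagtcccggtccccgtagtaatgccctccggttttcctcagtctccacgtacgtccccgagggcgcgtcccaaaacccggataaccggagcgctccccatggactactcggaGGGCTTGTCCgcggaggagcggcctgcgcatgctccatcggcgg
Jag2: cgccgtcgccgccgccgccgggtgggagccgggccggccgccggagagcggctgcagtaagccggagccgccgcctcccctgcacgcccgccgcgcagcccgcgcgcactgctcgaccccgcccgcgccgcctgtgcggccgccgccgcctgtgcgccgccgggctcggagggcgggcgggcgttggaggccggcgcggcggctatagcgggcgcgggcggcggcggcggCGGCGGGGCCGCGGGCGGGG

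The 250 bases before each of 10 listed starts of 8 of the genes were searched on both strands. Hes1 and Hey1 have no entry in the table. A p53 half-site lay before 1 start, the second of Rbpj, while 7.13% of all 32851 start sequences of the same length hold one. It spans 53590442 to 53590451 of chromosome 5, 44 to 35 bases before that start, and its middle is 140 bp from the nearer 3KR summit. A full p53 site, meaning a pair of such matches with at most 13 bases between them, was before none of the 10 starts and before 0.0639% of all starts. TGGGAA was before both starts of Rbpj and no other (21.6% of all starts). Its match at 53590281 to 53590286 is common to both Rbpj sequences, which overlap. The AP-1 site TGANTCA was before 1 start of Dll1 (6.75% of all starts). No half-site match overlapped a match to another motif, and a match is a string of letters, not evidence of binding.

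In the WT list 2 of the 10 genes had a summit, Jag2 and Hes1, while 11.6% of all protein-coding genes had one. In the 3KR list 6 of the 10 had one, Notch1, Jag2, Dll1, Hes1, Rbpj and Maml1, against 42.2% of all protein-coding genes. Among so few genes each one moves the share by a large step. The 10 genes were also longer than most, with a median length of 36.3 kb against 17.2 kb, which gives them wider windows. What this adds to the shares was not tested. Jag2 and Hes1 were in both lists (9.93% of all genes), and Notch1, Dll1, Rbpj and Maml1 in the 3KR list alone (32.2% of all genes). The other 4 were in neither (56.1% of all genes). None had a summit in the WT list alone (1.71% of all genes).

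**Figure D1:**
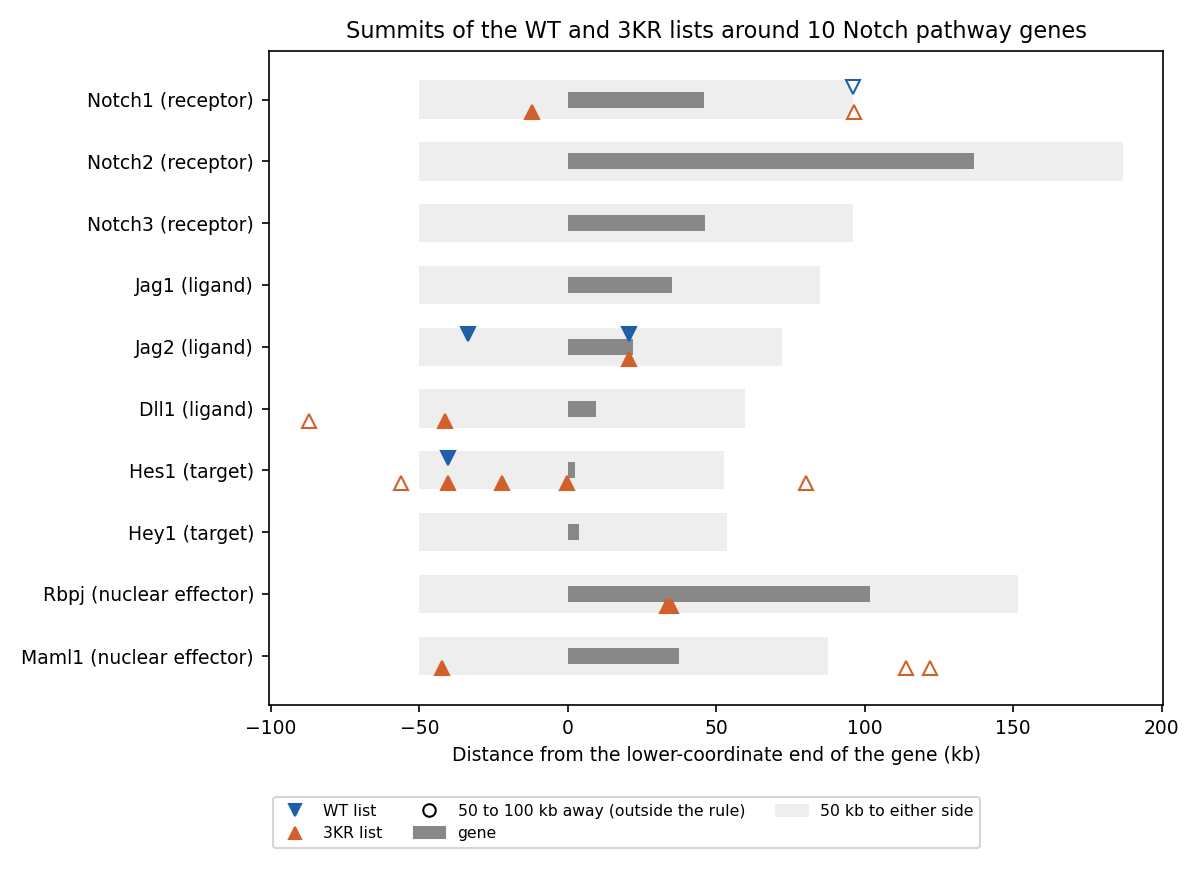
Summits around each of the 10 genes, with distance in kb from the gene's lower-coordinate end on the x axis and 1 row per gene. Dark bars are genes, pale bars reach 50 kb to either side, filled triangles are summits within that distance (3 in WT, 9 in 3KR) and open triangles those between 50 and 100 kb away. Jag2 and Hes1 are the rows with filled triangles of both lists.

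The 10 windows together cover 1.44 Mb. They held 3 WT summits, or 2.08 per Mb, where the windows of all protein-coding genes held 0.781 per Mb. They held 9 3KR summits, or 6.25 per Mb, against 3.42 per Mb. Summits of the WT list in these windows had scores of 4.41, 4.46 and 23.3, so all but the Jag2 site lay near the bottom of the list, whose median score was 9.42. In the 3KR list the scores ran from 4.58 to 39.6 with a median of 10.7, against 10.1 for the whole list. Of the 3 WT summits 2 had a 3KR summit within 200 bp (66.7%, against 52.6% of WT summits near all protein-coding genes). Of the 9 3KR summits 2 had a WT summit that close (22.2%, against 691 of the 5767 near all protein-coding genes).

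**Figure D2:**
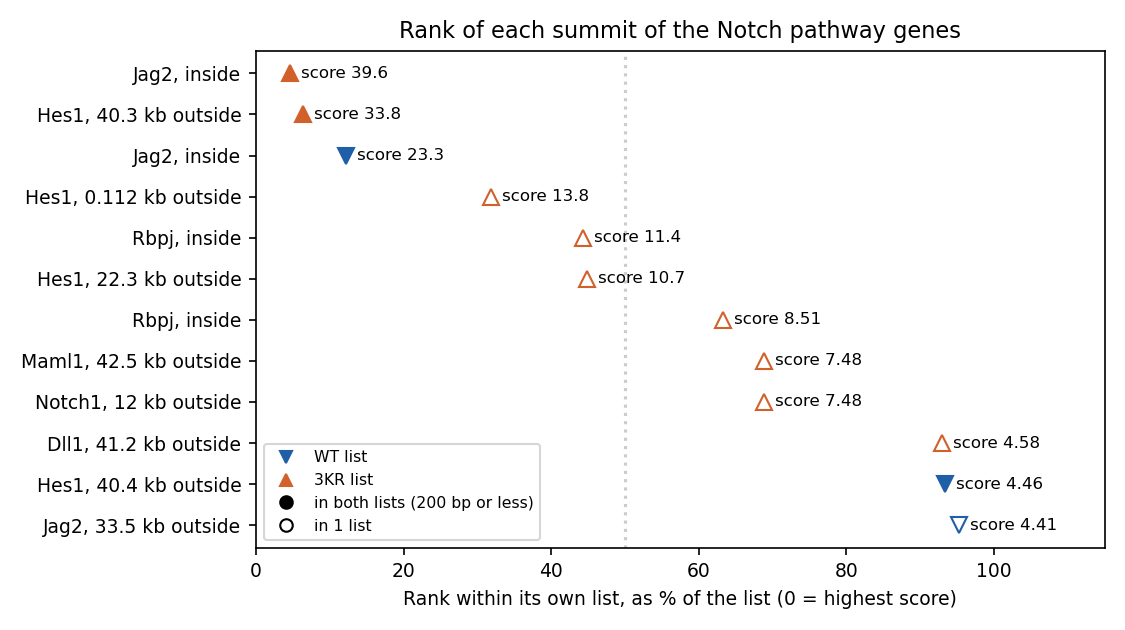
Each of the 12 summits by its rank within its own list, as a percentage of the list on the x axis (0 is the highest score), with its gene and distance on the y axis. Filled triangles have a summit of the other list within 200 bp, and the dotted line marks the middle of a list. The 2 summits inside Jag2 and the distant Hes1 summit of the 3KR list stand in the top 12.2%, while the further Jag2 summit of the WT list stands at 95.3% and the same Hes1 site at 93.4% in the WT list.

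Among the receptors, Notch1 was the single gene with a summit within 50 kb, and that summit was in the 3KR list. Notch1 encodes the receptor best known for epidermal differentiation and lies on the minus strand of chromosome 2, from 26457902 to 26503822. The 3KR summit, at 26445929, had a score of 7.48 and rank 4648 of 6753, a score that 314 summits of the list had. It stood 11973 bp beyond the end of Notch1 that is opposite its start, inside the neighbouring gene Sec16a, close to that gene's end at 26446293. Sec16a encodes a protein of export sites of the endoplasmic reticulum. A better scored site lay just outside the 50 kb limit on the other side. There the lists had summits at 26554084 (WT) and 26554128 (3KR), 44 bp apart, 50262 and 50306 bp beyond the end of Notch1 that holds its start. The WT summit had a score of 11.8 (rank 601 of 1668) and the 3KR summit 23.1 (rank 887 of 6753). The nearest gene to this shared site was Egfl7, which encodes a secreted factor of blood vessels, 26999 bp from the WT summit. A limit wider by 306 bp would thus have placed Notch1 in both lists by a shared site.

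Notch2 and Notch3, which encode further receptors, were farther from any summit. Notch3 (chromosome 17, 32120820 to 32166896) had the same nearest site in both lists, at 32321313 in WT and 32321329 in 3KR, 154 kb away. That site is 75 and 91 bp from Akap8, which encodes an anchoring protein of the nucleus. It ranked 1035 of 1668 in WT and 427 of 6753 in 3KR. Notch2, the longest of the 10 genes at 137 kb (chromosome 3, 98013538 to 98150367), had its nearest WT summit 1751 kb away and its nearest 3KR summit 261 kb away, inside Zfp697. The nearest WT summit was closer than that to 79.3% of all protein-coding genes, and the nearest 3KR summit to 74.2%.

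Jag2, which encodes a ligand made by basal keratinocytes, held the highest scored site of the group in each list. The gene lies on the minus strand of chromosome 12, from 112907803 to 112929812. Its WT summit at 112928471 had a score of 23.3 and rank 203 of 1668, in the top 12.2% of the list. Its 3KR summit at 112928481 had a score of 39.6 and rank 315 of 6753, in the top 4.66%. The summits were 10 bp apart and lay inside the gene, 1024 and 1014 bp downstream of the start whose sequence is printed above. They fall outside the printed stretch, so the letters under the site are not shown. A further WT summit at 112874315 had a score of 4.41 and rank 1590 of 1668. It stood 33.5 kb beyond the opposite end of Jag2, and its nearest 3KR summit was 54166 bp away. Gpr132, which encodes a G protein-coupled receptor, was closer to this WT summit than Jag2 was, at 5899 bp.

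The other ligand genes had weak or no sites. Dll1 encodes a ligand linked to epidermal stem cell patches and lies on chromosome 17 from 15367354 to 15376932, minus strand. It had a 3KR summit at 15326159, 41.2 kb beyond the end opposite its starts, with a score of 4.58 and rank 6271 of 6753. Dll1 was still the nearest protein-coding gene to that summit. The nearest WT summit was 313 kb from Dll1. Jag1 (chromosome 2, 137081451 to 137116520), which encodes another ligand, had its nearest WT summit at 109 kb, at 137225485 with rank 1135 of 1668, and its nearest 3KR summit at 162 kb, inside Slx4ip. These were different sites.

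Hes1, a transcriptional repressor gene that is switched on directly by Notch and keeps early differentiating cells immature, had the most summits of the 10 genes. The gene spans 30065357 to 30067796 on chromosome 16, and it was the sole protein-coding gene within 50 kb of each of its summits. In the 3KR list it had summits at 30025030, 30043077 and 30065245, with scores of 33.8, 10.7 and 13.8 and ranks 427, 3028 and 2151 of 6753. The last of these stood 112 bp outside the lower-coordinate end of the gene, with no WT summit within 40.3 kb. The middle one was 22.3 kb outside, with no WT summit within 18.1 kb. The farthest one, 40.3 kb outside, had the highest score of the 3 and was the one shared with WT. The WT summit of that site, at 30024940, was 90 bp away and had a score of 4.46 and rank 1558 of 1668. Hes1 thus had its shared site near the bottom of the WT list and in the top 6.32% of the 3KR list. Ranks of lists of unequal length cannot show whether binding changed.

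Hey1 (chromosome 3, 8663359 to 8667038), which encodes a related repressor, had no summit closer than 416949 bp in either list. The nearest site was shared, at 8246410 in WT and 8246403 in 3KR, 7 bp apart and 417 kb from Hey1. It was a high scored site in both lists, with rank 94 of 1668 and 193 of 6753, and its nearest gene was Stmn2, a gene of neuronal microtubule control, at 263 kb. For the 3KR list 81.9% of all protein-coding genes had a nearer summit than Hey1 did.

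Rbpj encodes the DNA-binding protein on which Notch signalling converges, and spans 53555779 to 53657445 on the plus strand of chromosome 5. Both of its summits were in the 3KR list and inside the gene. Measured from the annotated ends they seem remote, at 33509 and 34807 bp from the nearer one, but the starts listed for Rbpj lie within the gene. The summit at 53590586 was 100 bp downstream of the start at 53590486 and 240 bp downstream of the start at 53590346. It had a score of 8.51 and rank 4275 of 6753. The summit at 53589288 was 1058 bp upstream of the first start, with a score of 11.4 and rank 2989 of 6753. The summits were 1298 bp apart. The match to the p53 half-site printed above lies between them. In the WT list Rbpj was the most isolated of the 10 genes, with its nearest summit 7120 kb away, and 97.1% of all protein-coding genes had a nearer WT summit. Among the 8 genes with a listed start, Rbpj alone had a summit within 1 kb of one, in the 3KR list, where 11.3% of 17492 protein-coding genes with a listed start had one. In the WT list none of the 8 had one, against 1.03%.

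Maml1, which encodes a Mastermind coactivator, spans 50255634 to 50293131 on the minus strand of chromosome 11. Its 3KR summit, at 50213169, was 42.5 kb beyond the end opposite its start, with the same score and rank as the summit near Notch1 (7.48, rank 4648 of 6753). Sqstm1, which encodes the autophagy receptor p62, was closer to it, at 2349 bp. There were 6 protein-coding genes within 50 kb of this summit, the most for any of the 12 summits. The nearest WT summit was 1630 kb from Maml1. Of the 6 genes with a 3KR summit, Notch1 and Maml1 were therefore the ones whose summit had another gene as its nearest.

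**Figure D3:**
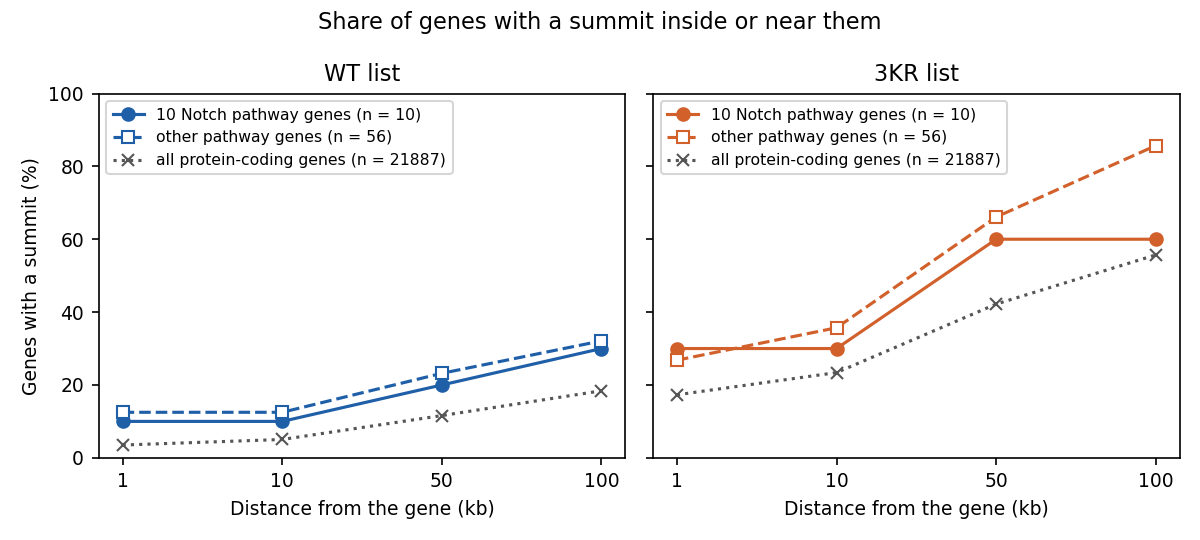
Percentage of genes with a summit inside or within 1, 10, 50 and 100 kb (x axis, unequal steps) for the 10 genes, 56 other Notch pathway genes and all 21887 protein-coding genes, in the WT list (left) and the 3KR list (right). At 50 kb 2 (WT) and 6 (3KR) of the 10 genes have one, and the other pathway genes stand at 23.2% and 66.1% and all genes at 11.6% and 42.2%.

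Closer to the genes fewer of the 10 had a summit. Within 10 kb Jag2 had one in WT (1 of 10, against 5.04% of all protein-coding genes), and Jag2, Hes1 and Rbpj had one in 3KR (3 of 10, against 23.4%). The same genes were found within 1 kb (all protein-coding genes 3.51% in WT and 17.3% in 3KR). Within 100 kb the counts were 3 of 10 in WT, where Notch1 was added (18.4% of all genes), and 6 of 10 in 3KR (55.7%).

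Another 56 genes of the pathway were taken as a list of further ligands, enzymes, adaptors, corepressors and targets. The list was chosen with earlier results of these data known. In the WT list 13 of 56 had a summit within 50 kb (23.2%, against 11.6% of all genes), and in the 3KR list 37 of 56 (66.1%, against 42.2%). These genes too were longer than most, with a median of 24.0 kb against 17.2 kb, and so have wider windows. Per Mb, their windows held 1.77 WT summits, against 0.781 in those of all protein-coding genes, and 8.16 3KR summits, against 3.42. What length adds to the shares was not tested. In all, 11 had summits in both lists (19.6%, against 9.93% of all genes), 2 in WT alone (3.57%, against 1.71%), 26 in 3KR alone (46.4%, against 32.2%) and 17 in neither (30.4%, against 56.1%). Neighbouring genes can share a summit, and a summit within 50 kb often had another gene nearer. When a summit counted for its nearest gene alone, 7 of the 56 kept one in WT, against 5.04% of all protein-coding genes, and 18 in 3KR, against 19.5%. The windows held 15 WT summits, of which 7 were shared with 3KR (46.7%, against 52.6% near all protein-coding genes), and 69 3KR summits, of which 7 were shared with WT (10.1%, against 691 of the 5767 near all protein-coding genes).

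**Figure D4:**
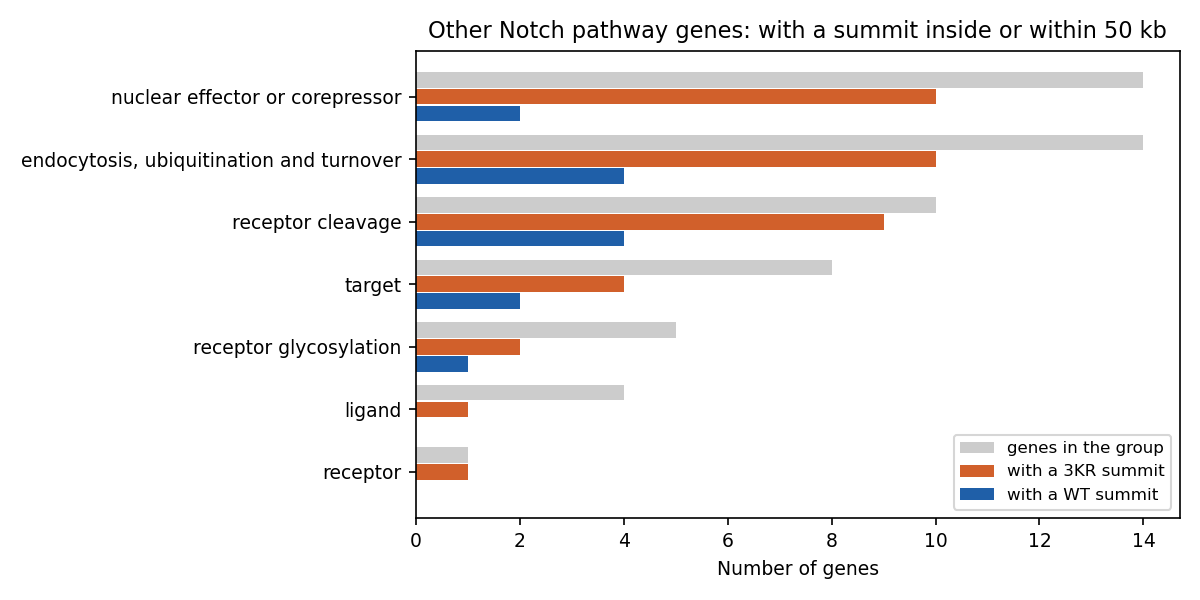
Number of genes (x axis) in each functional group of the 56 other pathway genes (grey), with a 3KR summit (orange) and with a WT summit (blue) inside or within 50 kb. The group of receptor cleavage has 9 of 10 genes with a 3KR summit and 4 of 10 with a WT summit, Aph1b and Aph1c through the same ones, where all protein-coding genes stand at 42.2% and 11.6%. In 3KR, Furin, Aph1c, Adam17, Aph1a and Psenen are counted only through summits with another gene nearest.

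Genes of receptor cleavage had a summit at 4 of 10 in WT (all protein-coding genes 11.6%) and 9 of 10 in 3KR (42.2%). Aph1b, a subunit gene of gamma-secretase, the complex that frees the intracellular part of Notch, had summits at 66795929 on chromosome 9 (WT, score 14.2, rank 453) and at 66795956 (3KR, score 25.5, rank 750). They were 27 bp apart and lay 506 and 533 bp upstream of its listed start. Aph1c, a related gene next to it, was counted through the same summits, 19.1 kb away, and reads from such similar genes may be hard to place. Furin, which encodes the protease that first cuts Notch receptors, was counted through a shared site 49.3 kb away, inside Unc45a. Adam17, Aph1a and Psenen too were counted in 3KR through summits 37.2, 38.0 and 25.4 kb away, each with another gene nearest. Adam10, which encodes the sheddase that cuts ligand-bound Notch, had a 3KR summit at 70678831 on chromosome 9, 151 bp upstream of its start, with a score of 13.6 and rank 2159 of 6753.

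The nuclear effector and corepressor genes had a summit at 2 of 14 in WT, near the 11.6% of all protein-coding genes, and 10 of 14 in 3KR (all genes 42.2%). In 3KR, Kat2b and Rbpjl were counted only through summits with another gene nearest. Maml3, a further Mastermind gene, had a summit in each list inside it, 53525 bp apart. Spen, which encodes a corepressor that binds RBPJ, had a 3KR summit at 141538708 on chromosome 4, 111 bp upstream of its start, with a score of 23.9 and rank 822 of 6753. Ctbp1, a corepressor gene, Maml2 and Snw1, a gene of a coactivator of splicing and transcription, had 3KR summits 457, 190 and 16 bp from a gene end. The highest scored 3KR summit of Maml2 was another one, in the gene body 18302 bp from an end (17.4, rank 1455).

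Spen and Adam10 are shown because their 3KR summit falls within the 250 bases before the start and scores highest among the 4 genes of which this is so. The others, Numb (5.13) and Tle1 (6.44, 107 bp upstream), are not shown. The capitals mark the 21 bases centred on the summit, in chr9:70678732-70678981 (plus strand) for Adam10 and chr4:141538598-141538847 (minus strand) for Spen, both from RefSeq (GRCm38.p6). Neither sequence holds a p53 half-site. That of Spen holds TGGGAA 8 to 3 bases before the start, 106 bp from the summit.
Adam10: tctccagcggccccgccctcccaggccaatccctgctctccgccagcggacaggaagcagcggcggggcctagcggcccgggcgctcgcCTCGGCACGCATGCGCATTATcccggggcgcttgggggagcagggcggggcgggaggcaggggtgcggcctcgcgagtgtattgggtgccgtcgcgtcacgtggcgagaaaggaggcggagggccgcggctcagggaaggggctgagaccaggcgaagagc
Spen: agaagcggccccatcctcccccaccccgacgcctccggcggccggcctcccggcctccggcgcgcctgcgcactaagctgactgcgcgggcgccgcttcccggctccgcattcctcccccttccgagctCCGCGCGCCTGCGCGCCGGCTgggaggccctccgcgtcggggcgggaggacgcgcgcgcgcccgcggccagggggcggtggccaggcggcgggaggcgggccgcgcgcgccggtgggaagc

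Among the 8 other target genes 2 had a WT summit (all protein-coding genes 11.6%) and 4 a 3KR summit, near the 42.2% of all genes. Hes7, a repressor gene best known from the segmentation clock, had a shared site inside it, 5 bp apart, at 69123736 on chromosome 11 in WT (score 6.31, rank 1295) and 69123741 in 3KR (score 20.7, rank 1088). It lay 318 and 313 bp from the gene end opposite its start. Hes6 had a WT summit 10163 bp away (20.4, rank 262 of 1668) and a 3KR summit 2499 bp from that one (4.05, rank 6486 of 6753). Both were nearest to Ilkap. Hes3 had a 3KR summit 5297 bp away (20.6, rank 1092), which was 6 bp from Icmt.

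Genes that glycosylate the receptor had a summit at 1 of 5 in WT (all protein-coding genes 11.6%) and 2 of 5 in 3KR, near the 42.2% of all genes. Lfng, which encodes a sugar transferase that changes which ligands Notch answers to, was the WT gene. Its summit lay inside the gene at 140610835 on chromosome 5 (14.4, rank 445 of 1668), and no 3KR summit was nearer than 102696 bp. Pofut1, the gene of the enzyme that adds fucose to Notch, had a 3KR summit 3502 bp away (10.7, rank 3028), inside Plagl2.

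Genes of endocytosis, ubiquitination and turnover had one at 4 of 14 in WT (all protein-coding genes 11.6%) and 10 of 14 in 3KR (42.2%). Neurl1b, a ubiquitin ligase gene acting on ligands, had a WT summit inside it (6.01, rank 1323) and a 3KR summit 3994 bp outside (15.8, rank 1693), 13677 bp apart. Numb, an inhibitor of Notch, had a 3KR summit 213 bp upstream of its listed start (5.13, rank 6018) and a WT summit 26009 bp away, nearest to Papln. Numbl was counted through a shared site 33.2 kb away, inside Itpkc, and Neurl3 through a WT summit 31.6 kb away (18.7, rank 300), nearest to Arid5a. In 3KR, Numbl, Itch, Mib1, Dtx2 and Dtx3l had only summits with another gene nearest. Mib2, which encodes another ligase of the ligands, had a 3KR summit 281 bp outside it (18.9, rank 1274), and Fbxw7, which marks the intracellular part of Notch for degradation, 527 bp outside (13.6, rank 2159). Of the remaining ligand genes 0 of 4 had a WT summit (all protein-coding genes 11.6%) and 1 of 4 a 3KR summit (42.2%). That gene was Dlk2, through a summit 31.0 kb away, inside Tjap1. Notch4, the remaining receptor gene, had a 3KR summit 15.2 kb away (20.6, rank 1092), as 42.2% of all protein-coding genes had one within 50 kb. This summit was 206 bp from Rnf5, with 11 protein-coding genes within 50 kb.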

How the data were processed

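ChIP-seq for p53 was done in sorted basal epidermal cells, 3 libraries per genotype. Per the submitters' processing notes the authors used BWA and MACS2 on the mm10 build. Not given in the sources used here are versions, the control library, the threshold and how libraries were joined. The authors deposited 1 list of summits per genotype with a score read as −log10 of a p-value or q-value. Which of these it is remains unclear, and scores were ranked within a list, ties sharing the better rank. The depth of the libraries is unknown.

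Summits (1-based, mm10) were assigned to a gene if inside it or within 50 kb of either end, using a RefSeq table of GRCm38.p6, in which all 66 genes were found. The background was 21887 protein-coding genes on assembled chromosomes. Summits at most 200 bp apart were shared. Starts came from the RefSeq table of start sequences, with 8 of the 10 and 44 of the 56 genes. Motifs were searched on both strands of the 250 bases before each start. Counting was tested on simulated lists. Python 3.11.15, pandas 2.3.3, numpy 2.4.6 and matplotlib 3.10.9 were used.

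No test was run, since lists hold no replicates and the genes and lists were chosen with earlier results of these data known. Named beyond the 10 genes are those of the other 56 with a WT summit, the 12 with the highest scored 3KR summit within 10 kb of an end, and genes nearest to a summit. Other neighbours of the 10 genes and of the 56, Notch4, the second Maml2 summit, and Tle1, were named after their values were seen. So were Adam17, Aph1a, Psenen, Itch, Mib1, Dtx2, Dtx3l, Kat2b, Rbpjl and Dlk2, as genes counted through summits nearest to another gene. Among the other 56 genes, 2 that the rule names are not reported here.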

Additional observations from a re-analysis of the deposited data

How the results depend on the processing

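The counts depended on distance and on score. The values at 50 kb were 2 genes and 3 summits in WT, 6 genes and 9 summits in 3KR, 2 shared summits, and 13 (WT) and 37 (3KR) of the 56 other pathway genes. Within 10 kb these were 1 and 1, 3 and 4, 1, and 7 and 20. Within 1 kb they were 1 and 1, 3 and 4, 1, and 7 and 15. Inside genes alone they were 1 and 1, 2 and 3, 1, and 7 and 8. Within 100 kb the 3KR summits numbered 15, while the other counts stayed within 1.5 times. In the top 50% of each list by score there were 1 gene and 1 summit in WT, 3 genes and 5 summits in 3KR, and 1 shared summit. Of the 56, 9 (WT) and 26 (3KR) kept a summit in the top 50%. With only as many 3KR summits as WT has, taken by score, 2 genes (Jag2 and Hes1) and 2 summits remained in 3KR, and 18 of the 56. For the counts inside genes, in the top 50% and with fewer 3KR summits, no share of all protein-coding genes is given. These counts therefore have no background to be read against. Counting the nearest gene alone gave 2 genes and 2 summits in WT, 4 genes and 7 summits in 3KR, and 2 shared summits. Of the 56 it gave 7 (WT) and 18 (3KR). By this count all protein-coding genes stood at 5.04% (WT) and 19.5% (3KR). The alternatives for the 56 genes were chosen after seeing the data. Sharing at 100, 500 or 1000 bp gave 2 shared summits each time. Leaving out a library was not possible with combined lists. No paired analysis was possible because each genotype has 1 combined list with no value per library. Depth limits what a missing WT summit can show.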

Other observations

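Besides the shared site beyond Notch1 described above, several 3KR summits lay between 50 and 100 kb from the 10 genes. Those beside Dll1 and Maml1 scored higher than the 3KR summit within 50 kb of the same gene. Beside Dll1 a 3KR summit at 15280335 on chromosome 17, 87.0 kb from the gene, had a score of 32.9 and rank 452 of 6753, with no protein-coding gene within 50 kb and Dll1 as the nearest. Beside Maml1 there were 3KR summits at 50369519 and 50377707 on chromosome 11, 76.4 and 84.6 kb away, with ranks 218 and 315 of 6753, and Hnrnph1, which encodes an RNA-binding protein, was the nearest gene to both. Hes1 had further 3KR summits 56.2 kb away on one side and 77.7 kb away on the other (ranks 6486 and 3966). Both scored lower than its 3KR summits within 50 kb. None of these summits beside Dll1, Maml1 and Hes1 had a WT summit within 200 bp.

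Many summits share a score. In the 3KR list 85.5% of summits had a score that another summit of the list also had, and in the WT list 52.4%. The score of 7.48 near Notch1 and Maml1 was that of 314 summits, and the score of 4.58 near Dll1 that of 190. The ranks of such summits place a block of equal scores.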
